A study of Homo sapiens with 12 samples.

Results

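The genes described here are the 32 listed genes of protein folding in the endoplasmic reticulum and of the unfolded protein response. They were taken by symbol from the 19251 genes in the table, and all 32 were found. They were measured by RNA sequencing in 12 libraries from the human ovarian cancer cell lines CAOV3, labelled epithelial high grade serous, and TOV21G, labelled epithelial clear. Per the labels both lines are wild type. For each line there were 3 control libraries with no treatment and 3 libraries of cells exposed for 16 h to 10% ascites, the abdominal fluid that ovarian tumours often cause. Every culture was seeded with 250000 cells in 1.5 mL of DMEM with 10% fetal bovine serum and antibiotics, and the ascites was added as 150 µL. The labels describe no mock addition to the control wells and give no donor or number of donors for the ascites. They also do not say whether the 3 libraries of a group came from separate cultures, so the p-values measure the spread between these libraries, which may be technical. The study asked which transcripts change when ovarian cancer cells meet ascites.

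Secreted and membrane proteins enter the endoplasmic reticulum unfolded and are held by the chaperone BiP, encoded by HSPA5, by lectin chaperones that bind their sugars, and by isomerases that form disulfide bonds. Proteins that do not fold are moved back to the cytosol and degraded. When unfolded proteins build up, 3 sensors in the membrane start the unfolded protein response. IRE1, encoded by ERN1, splices the mRNA of the transcription factor XBP1. ATF6 is cut in the Golgi and becomes a transcription factor itself, and PERK, encoded by EIF2AK3, slows translation. The factors made by the response raise the mRNAs of chaperones and degradation proteins, which is why the levels of HSPA5, HERPUD1, SDF2L1 and DNAJB9 are commonly read as its output.

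Several members carry the promoter element through which ATF6 and XBP1 are known to act, and that is why the following windows are shown. The upstream 250 bases of RefSeq promoters (GRCh38.p14) were searched on both strands for the endoplasmic reticulum stress element, which is CCAAT and CCACG with any 9 bases between them, and for its variant, which is ATTGG and CCACG with any 1 base between them. The motifs may overlap in a promoter. Promoters were matched by symbol for 28 of the 32 members, leaving out PDIA3, DERL1, DERL3 and SEC24D. The first motif was present in 7 of the 28 (25%), namely HSPA5, HSP90B1, CALR, CANX, PDIA6, CRELD2 and XBP1, against 25 of 27305 genes in all (0.0916%). The variant was present in 3 of the 28 (10.7%), HYOU1, SDF2L1 and HERPUD1, against 18 of the 27305 (0.0659%). The members were listed as genes of the response in which this element is known to act, so their higher share is not an independent finding. A match of letters is a description and not a bound site. The windows of 5 members are printed in the direction of transcription with the motif in capitals. The motifs of CALR and SDF2L1 lie on the opposite strand and so read as the reverse complement.
HSPA5, chr9:125241366-125241434, minus strand: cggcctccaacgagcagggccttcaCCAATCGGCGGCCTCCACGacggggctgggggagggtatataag
XBP1, chr22:28800578-28800646, minus strand: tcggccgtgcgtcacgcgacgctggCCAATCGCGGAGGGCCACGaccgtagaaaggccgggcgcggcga
CALR, chr19:12938359-12938427, plus strand: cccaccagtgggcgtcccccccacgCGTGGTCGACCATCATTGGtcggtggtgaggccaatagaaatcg
SDF2L1, chr22:21642089-21642149, plus strand: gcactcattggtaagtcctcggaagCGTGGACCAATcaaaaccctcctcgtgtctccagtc
HERPUD1, chr16:56932000-56932060, plus strand: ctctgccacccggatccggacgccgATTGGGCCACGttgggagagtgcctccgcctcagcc

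XBP1 also holds the sequence on which IRE1 acts. The stretch below is from GRCh38 at chr22:28796084-28796189 on the minus strand, inside the coding sequence. IRE1 removes an intron of 26 bases from this part of the mRNA. The capitals mark it at 1 of the 2 positions at which it is annotated (chr22:28796124-28796149). Which of the 2 positions matches the cuts of IRE1 was not determined here. Of 7 transcripts annotated in GENCODE release 29, 4 keep these bases and 2 lack them. The deposited values are counted per gene, so both forms of XBP1 mRNA fall into 1 value and the amount spliced was not measured.
XBP1 intron and flanks: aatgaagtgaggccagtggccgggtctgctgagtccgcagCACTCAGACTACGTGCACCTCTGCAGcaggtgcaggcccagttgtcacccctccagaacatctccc

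The values are normalised read counts, and the reads behind them totalled 26697609 to 34491304 per library. All 32 members passed the filter of a value of at least 10 in at least 3 libraries, as did 17616 genes in all. DERL3 was the least abundant and passed through CAOV3, since only 1 TOV21G library reached that value. The libraries of TOV21G were less alike than those of CAOV3. The nuclear RNA KCNQ1OT1 had values of 95.4, 656 and 234 in the TOV21G controls and of 731, 234 and 1511 in TOV21G with ascites. In CAOV3 it stayed between 614 and 813. Its lowest value was in TOV21G control replicate 1 and its highest in TOV21G ascites replicate 3. For TOV21G the member counts, medians and named changes are also given without these 2 libraries, which leaves 2 controls against 2. Of the markers of the lines, PAX8 lay between 6797 and 9342 in TOV21G and between 18.2 and 25.6 in CAOV3. PAX8 and WT1, commonly used to mark high grade serous tumours, were therefore low in the line labelled with that type, with WT1 at 2.15 to 8.18. Of 6 leukocyte markers, 2 were in the table, CD14 and LYZ. Their summed value was 117 to 134 in CAOV3 controls, 101 to 125 in CAOV3 with ascites, 8.39 to 13.0 in TOV21G controls and 11.6 to 20.4 in TOV21G with ascites. LYZ was listed at 0 in all 6 TOV21G libraries. PTPRC, CD3E, CD68 and MS4A1, the fibroblast gene DCN and the 5 blood markers were not analysed here. The summed value of 4 fibroblast markers was 4217 to 4917 in CAOV3 controls, 3812 to 4010 with ascites, 12548 to 13084 in TOV21G controls and 11259 to 11694 with ascites. That of 4 mesothelial markers was 62.4 to 76.2, 47.0 to 68.6, 586 to 659 and 583 to 639 in the same order. Both sums joined genes that went opposite ways between the lines. COL1A2 was 0 to 2.97 in CAOV3 and 9491 to 11100 in TOV21G, whereas LUM was 3532 to 4604 and 0 to 4.97. MSLN was 6.13 to 18.8 in CAOV3 and 459 to 552 in TOV21G, whereas CALB2 was 33.7 to 48.5 and 0 to 1.08. Whether these marker levels play a part in the results below was not tested. In bulk RNA, fewer cells of a type and less RNA per cell cannot be told apart.

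Ascites moved none of the 32 genes past the threshold in CAOV3. The mRNA of HSPA5 was 1.04 times as abundant, and those of the 3 sensors and XBP1 all lay within 1.13-fold of their controls. The largest fitted fold among genes other than DERL3 was a 1.17-fold lower level of HERPUD1. With limma across all genes and Benjamini-Hochberg adjustment, 0 of 32 were called at an adjusted p under 0.05, beside 1.73% of all genes tested. The edgeR and DESeq2 tests on the recovered reads also called 0 of 32. At an unadjusted p under 0.05 there were 6 members by limma, 7 by edgeR and 6 by DESeq2, against 12.9% of all genes by limma. The median fitted change of the members was 0.01 on the log2 scale, and that of all genes was -0.002. The 95% confidence intervals of all members but DERL3 lay between -0.37 and 0.36 on that scale, which leaves room for changes of up to about 1.3-fold.

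**Figure D1:**
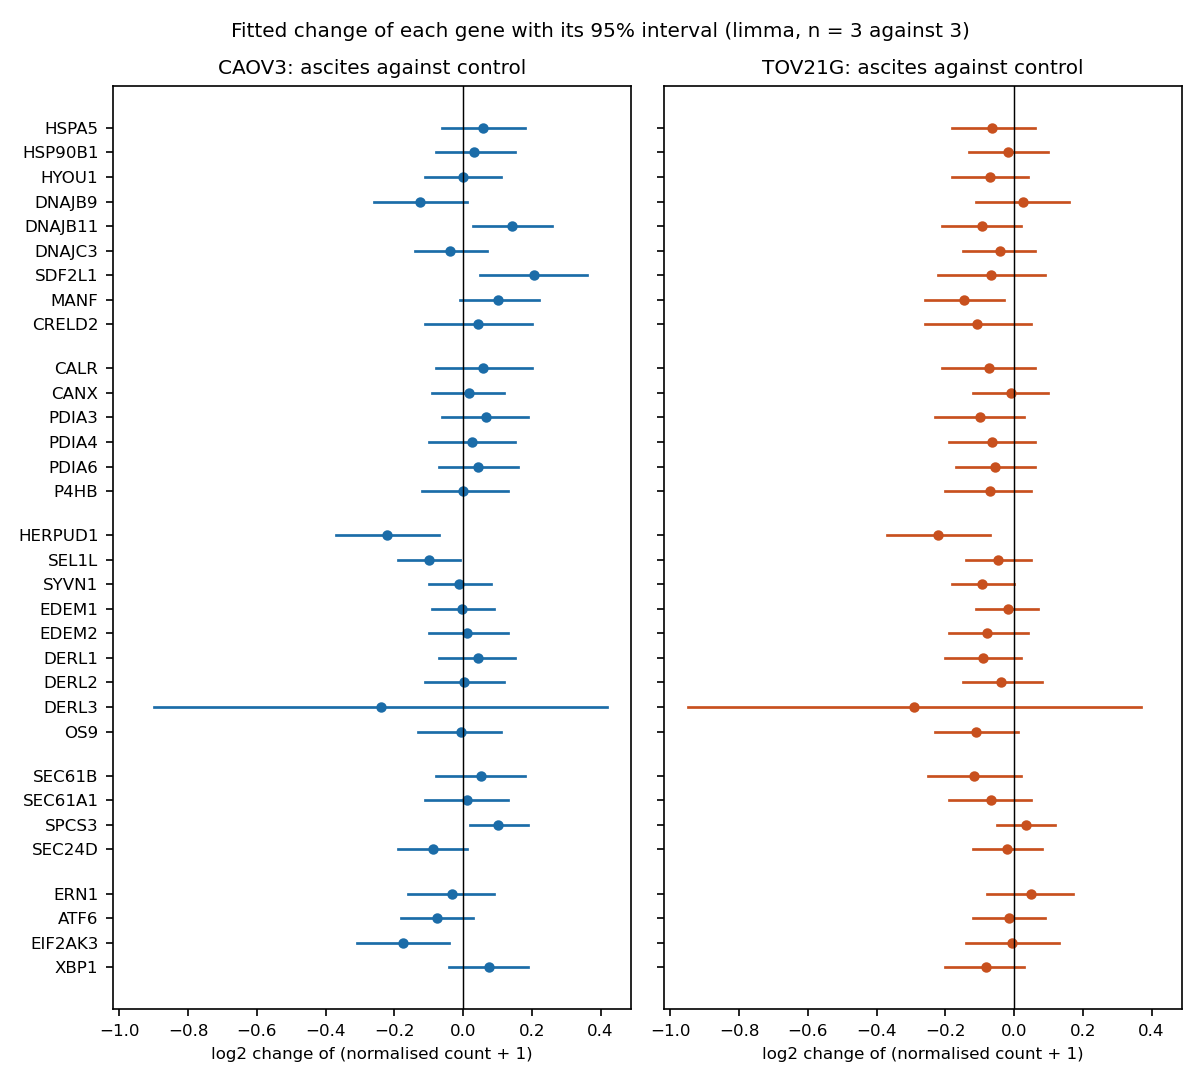
Fitted log2 change of each of the 32 genes with ascites in CAOV3 (left) and TOV21G (right), on the scale of log2(normalised count + 1). Points are the fitted change and lines its 95% confidence interval, from limma with 3 libraries against 3. Genes are ordered from the top by role: chaperones, lectin chaperones and isomerases, degradation, translocation and export, sensors and XBP1. Points lie between -0.24 and 0.21 in CAOV3 and between -0.29 and 0.05 in TOV21G, and DERL3 has the widest interval in both.

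Among the chaperones, HSPA5 (ENSG00000044574, chromosome 9, 125234853 to 125241330 in GENCODE 29) had values of 16583, 16539 and 17046 in the CAOV3 controls and of 17623, 17101 and 17530 with ascites. All 3 ascites libraries were higher than the controls, but the fitted change of 0.06 (SE 0.06, adjusted p = 0.72, limma) was well within what the spread allows. The largest upward value among all members was that of SDF2L1, which encodes a small partner of BiP. It stood at 766, 849 and 771 in controls and at 882, 943 and 925 with ascites. The libraries did not overlap, and the fitted change was 0.21 (95% interval 0.05 to 0.36, adjusted p = 0.212, limma). DNAJB11, a co-chaperone that delivers clients to BiP, read 1112, 1170 and 1117 in controls and 1254, 1234 and 1266 with ascites, again without overlap. Its fitted change was 0.14 (95% interval 0.03 to 0.26, adjusted p = 0.246). SDF2L1, DNAJB11, MANF, PDIA3, HERPUD1, SEL1L and SPCS3 were singled out after their values were seen. The other chaperones and partners lay between -0.13 for DNAJB9, another co-chaperone of BiP, and 0.10 for MANF, a secreted partner of BiP. HSP90B1, the Hsp90 of this compartment, stood at 0.03, HYOU1, which exchanges nucleotide on BiP, at -0.001 and CRELD2 at 0.04. DNAJC3, a co-chaperone also known for inhibiting PERK, stood at -0.04.

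The 6 lectin chaperones and isomerases varied least. In CAOV3 their fitted changes ran from 0.00 for P4HB, the classical disulfide isomerase, to 0.07 for PDIA3, the isomerase that works with the lectin chaperones. PDIA3 was 14144, 13606 and 14032 in controls and 14607, 14422 and 14780 with ascites, a shift of 1.05-fold without overlap. CALR and CANX, the lectin chaperones calreticulin and calnexin, stood at 0.06 and 0.02.

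HERPUD1 (ENSG00000051108, chromosome 16, 56932048 to 56944863), a membrane scaffold of the degradation complex and a common reporter of the response, had the lowest p of the members in CAOV3. Its values were 2496, 2657 and 2549 in controls and 2128, 2199 and 2287 with ascites. Every ascites library was below every control. The fitted change was -0.22 (SE 0.07, 95% interval -0.37 to -0.07, adjusted p = 0.184, limma), which misses the threshold. Its adjusted p was 0.0513 with edgeR and 0.0501 with DESeq2, and it passed in 1 alternative fit, at 0.0214, when the TOV21G libraries with the lowest and highest KCNQ1OT1 were left out and the spread was estimated from the other 10. By limma the adjusted p of HERPUD1 was 0.332 with the replicate block and ran from 0.0961 to 0.416 with 1 library left out. SEL1L, which with the ubiquitin ligase SYVN1 forms the core of that complex, was 2544, 2636 and 2831 in controls and 2515, 2484 and 2471 with ascites, a fitted change of -0.10 (adjusted p = 0.337). SYVN1 itself stood at -0.01, and EDEM1, which directs misfolded glycoproteins to degradation, at -0.002. EDEM2 stood at 0.01, DERL1 at 0.04, DERL2 at 0.002 and the lectin OS9 at -0.01. DERL3, whose protein belongs with those of DERL1 and DERL2 to the derlin family of degradation, was 38.6, 33.4 and 40.6 in controls and 21.9, 31.7 and 45.0 with ascites, and its libraries overlapped. At this level the interval of its change was wide, from -0.90 to 0.42 around -0.24.

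Among the translocation, processing and export genes, SPCS3, a subunit of the signal peptidase, read 10216, 10444 and 11108 in controls and 11671, 11081 and 11315 with ascites. The groups overlapped and the fitted change was 0.10 (95% interval 0.02 to 0.19, adjusted p = 0.268). SEC61A1 and SEC61B, subunits of the translocation channel, stood at 0.01 and 0.05, and SEC24D, a subunit of the coat that carries cargo out of the compartment, at -0.09.

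Of the sensors in CAOV3, EIF2AK3 (chromosome 2, 88556741 to 88627576) had values of 784, 770 and 859 in controls and of 709, 690 and 736 with ascites. The libraries did not overlap, and the fitted change was -0.18 (95% interval -0.31 to -0.04, adjusted p = 0.213). ATF6 (chromosome 1, 161766294 to 161964070) was 1162, 1142 and 1305 in controls and 1134, 1127 and 1160 with ascites. Its control replicate 3 stood above the other 5 libraries, and the fitted change was -0.08 (adjusted p = 0.587). ERN1 (chromosome 17, 64039142 to 64130819) was 537, 593 and 581 in controls and 563, 547 and 562 with ascites. The groups overlapped around a fitted change of -0.03 (adjusted p = 0.893). XBP1 (chromosome 22, 28794555 to 28800597) was 2581, 2469 and 2500 in controls and 2669, 2559 and 2720 with ascites, a fitted change of 0.07 (adjusted p = 0.615). In all, 7 of 32 members had libraries that did not overlap between CAOV3 controls and ascites (HSPA5, SDF2L1, DNAJB11 and PDIA3 higher, HERPUD1, SEL1L and EIF2AK3 lower), beside 24.2% of all genes, 11.4% higher and 12.8% lower.

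**Figure D2:**
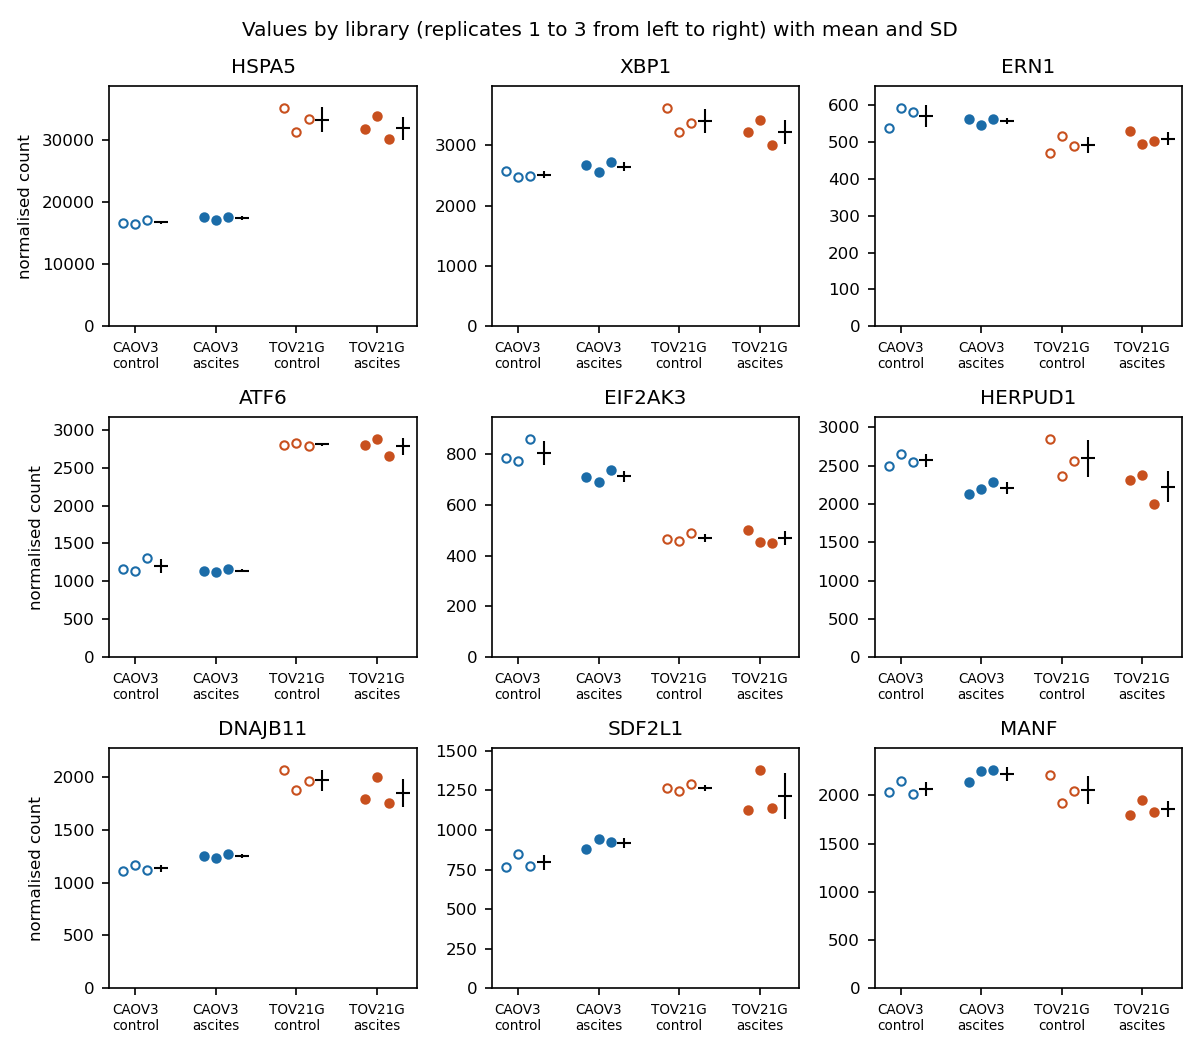
Normalised count of 9 members in each of the 12 libraries, with open circles for controls, filled circles for ascites, blue for CAOV3 and orange for TOV21G. The bar beside each group is its mean with its SD (n = 3). In each of these genes the ascites and control points of a line lie close to each other. HSPA5, XBP1, ATF6, EIF2AK3, DNAJB11 and SDF2L1 are set apart mainly by the line, and ERN1 by a narrow margin.

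In TOV21G no member passed the threshold either, and most fitted values lay slightly below 0. With limma 0 of 32 were called, beside 0.409% of all genes tested. At an unadjusted p under 0.05 there were 2 members by limma, 2 by edgeR and 2 by DESeq2, with 0 called by each tool, against 9.17% of all genes by limma. The median of the members was -0.07 and that of all genes was -0.02. The intervals of the members other than DERL3 lay between -0.37 and 0.17. HSPA5 was 35153, 31214 and 33436 in controls and 31669, 33797 and 30075 with ascites. Its groups overlapped, with a fitted change of -0.06 (adjusted p = 0.735). HERPUD1 again had the lowest p of the members, with 2849, 2370 and 2559 in controls and 2307, 2376 and 1996 with ascites. The fitted change of -0.22 equalled that in CAOV3 to 2 decimals (95% interval -0.37 to -0.07, adjusted p = 0.36), but here the groups overlapped. Without the 2 libraries at the extremes of KCNQ1OT1 the change of HERPUD1 was -0.07 and that of HSPA5 0.02.

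The other members of the response that were named in CAOV3 had small values in TOV21G. XBP1 was 3623, 3223 and 3367 in controls and 3222, 3418 and 3014 with ascites, a fitted change of -0.08 (adjusted p = 0.648). ATF6 stood at -0.02, EIF2AK3 at -0.005 and ERN1 at 0.05. MANF, the other member with an unadjusted p under 0.05, was 2206, 1922 and 2045 in controls and 1796, 1949 and 1827 with ascites, a fitted change of -0.15 (adjusted p = 0.427). Without the 2 libraries at the extremes MANF stood at -0.083, XBP1 at 0.01, ATF6 at 0.017, EIF2AK3 at 0.016 and ERN1 at 0.026. DERL3 was 8.67, 8.39 and 9.87 in controls and 7.45, 10.6 and 4.47 with ascites, and its libraries overlapped around a fitted change of -0.29 (95% interval -0.95 to 0.37). Its change was -0.027 without the 2 libraries at the extremes. The libraries of 2 members did not overlap, beside 11.1% of all genes: SPCS3, higher with ascites at 0.03, and SYVN1, lower at -0.09. Without the same 2 libraries they stood at 0.035 and -0.061.

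Within groups, many members had their highest or lowest value in the same library. Replicate 1 of the TOV21G controls held the highest control value for 21 of 32 members (49% of all genes tested) and replicate 2 the lowest for 24 (45.8%). Among the TOV21G ascites libraries replicate 2 held the highest value for 29 members (48.5%) and replicate 3 the lowest for 27 (44.4%). In CAOV3, control replicate 3 held the highest control value for 21 members (42.3%) and ascites replicate 2 the lowest ascites value for 20 (38.1%). In TOV21G, control replicate 1 was above control replicate 2, and ascites replicate 2 above ascites replicate 3, in 26 of 32 members. This pair of relations was shared by 45.6% of all genes tested. In both TOV21G groups the library with the highest members had low KCNQ1OT1 (95.4 and 234) and the library with the lowest members had high KCNQ1OT1 (656 and 1511). The long RNA MALAT1 followed the same order, with 14363 and 36224 in those controls and 21436 and 66860 in those ascites libraries. The share of all counts from mitochondrial genes was 2.18% and 1.77% in the controls and 2.71% and 1.49% in the ascites libraries. The part of these library differences in the ascites comparison was not tested as a cause, but values without the libraries were computed. Of the 32 fitted changes in TOV21G, 29 were below 0 (all genes: 56.1%). With TMM scaling the number was 23 (all genes: 47.5%). With any 1 TOV21G library left out it was 24 to 29, and the median ran from -0.118 without ascites replicate 2 to -0.022 without ascites replicate 3. Without the 2 libraries at the extremes 13 were below 0 (all genes: 47.7%) and 19 above, with a median of 0.008. Since those libraries held the highest control value for 21 members and the lowest ascites value for 27, leaving them out raises the fitted changes of those members by construction.

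**Figure D3:**
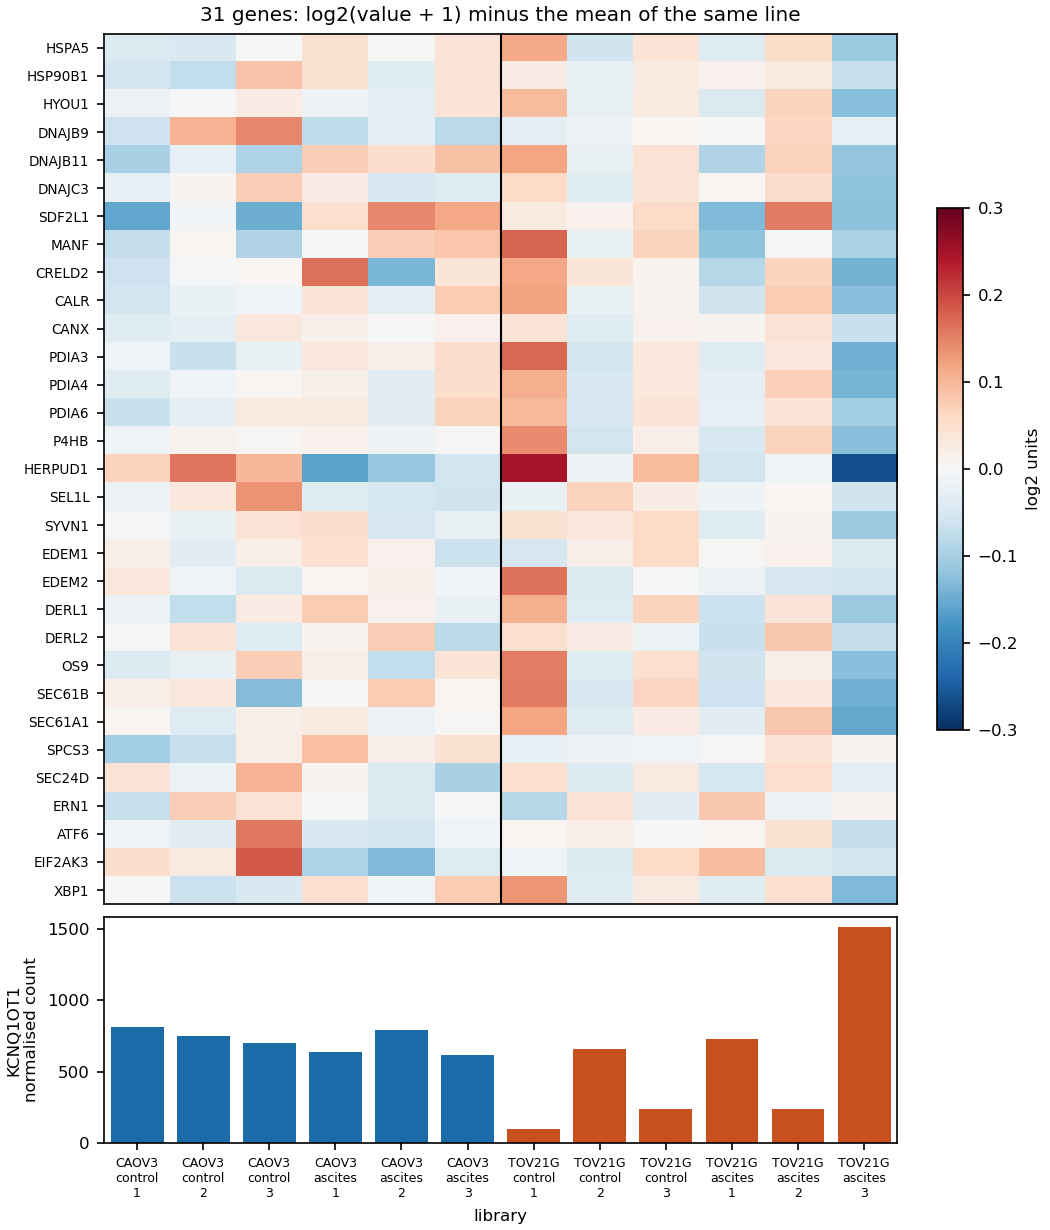
Top: log2(value + 1) of 31 members in each library minus the mean of the 6 libraries of the same line, red for higher and blue for lower, with DERL3 left out because of its low counts. Bottom: normalised count of KCNQ1OT1 in the same libraries. In TOV21G most members are red in control replicate 1, where KCNQ1OT1 is 95.4, and blue in ascites replicate 3, where it is 1511.

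The response of the lines was compared by the interaction term, TOV21G change minus CAOV3 change. It was past the threshold for 0 of 32 members with limma, beside 0.545% of all genes. At an unadjusted p under 0.05 there were 3 members by limma, 5 by edgeR and 4 by DESeq2, with 0 called by each, against 11.9% of all genes by limma. The 3 were the BiP partners MANF, at -0.25 (95% interval -0.41 to -0.09, adjusted p = 0.243), DNAJB11, at -0.24 (-0.40 to -0.08, adjusted p = 0.254), and SDF2L1, at -0.27 (-0.49 to -0.05, adjusted p = 0.331). Without the 2 TOV21G libraries at the extremes these differences were -0.19, -0.16 and -0.23. For each of them the fitted value was above 0 in CAOV3 and below 0 in TOV21G. SDF2L1 passed, at -0.37 with an adjusted p of 0.0447, when TOV21G ascites replicate 2 was left out. That library held 1380 for SDF2L1, against 1129 and 1136 in the other ascites libraries. The difference for HERPUD1 was 0.00 (-0.22 to 0.22), and for HSPA5 it was -0.12 (-0.29 to 0.05, adjusted p = 0.533).

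At baseline the lines differed in most of these genes, as they did in most genes. Untreated TOV21G had about 5 times the EDEM1 of CAOV3, over 2 times the DNAJB9 and ATF6 and about 2 times the HSPA5, and lower DNAJC3, SPCS3, EIF2AK3 and SYVN1. With limma 25 of 32 members were called, 17 higher in TOV21G and 8 lower, and edgeR and DESeq2 gave the same numbers. One of the lower genes was DERL3, which passed the filter through CAOV3. With a filter at 50, which removes it, 24 of 31 were called, 17 higher and 7 lower. Without the 2 TOV21G libraries at the extremes 25 of 32 were called, 16 higher and 9 lower. The background was 82.2% of all genes tested, 40.8% higher and 41.4% lower, and the share among the members, 78.1%, did not exceed it. Differences of at least 2-fold were present in 5 of 32 members, against 42.6% of all genes. The median difference was 0.23 for the members and -0.02 for all genes. These comparisons share the control libraries with the ascites comparisons.

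**Figure D4:**
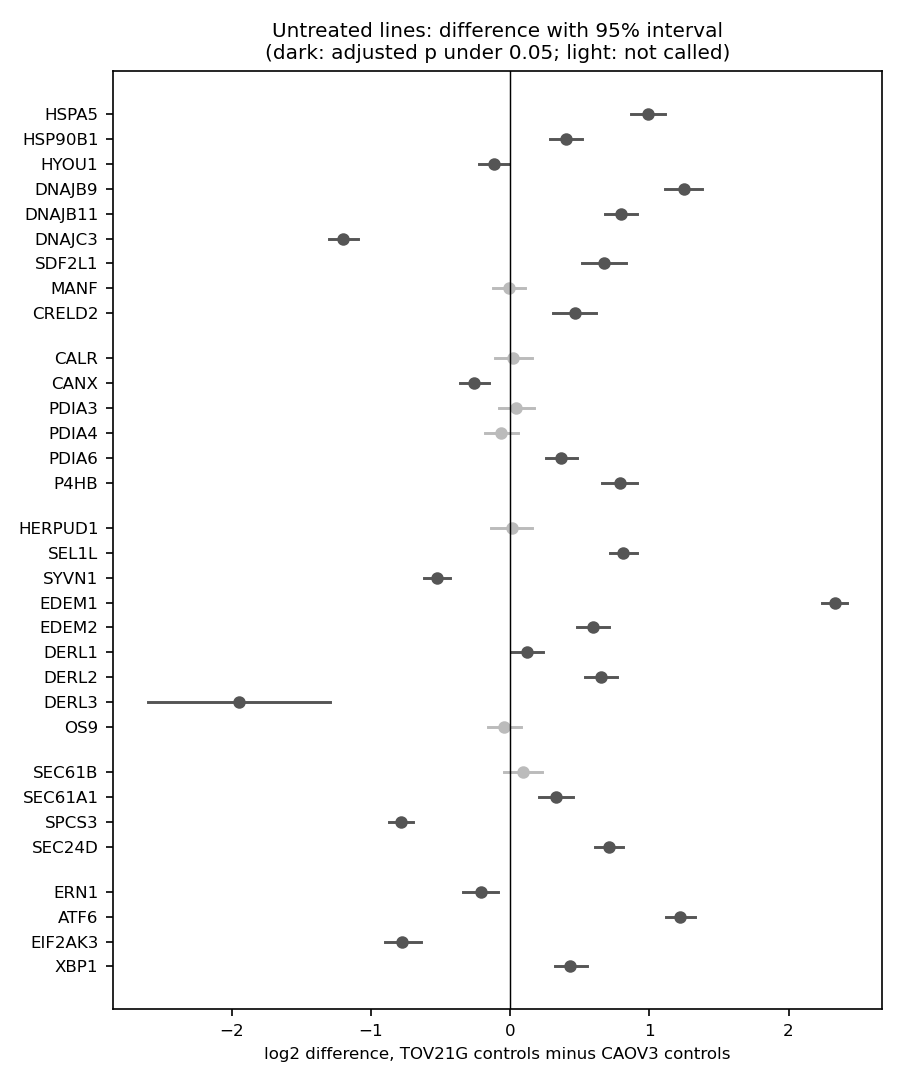
Log2 difference of each member between untreated TOV21G and untreated CAOV3, with its 95% confidence interval from limma (3 libraries against 3). Dark points passed an adjusted p of 0.05 and light points did not. The order of genes is by role, as in the plot of changes with ascites. EDEM1 lies farthest to the right, at 2.33, and DERL3 farthest to the left, at -1.95.

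HSPA5 was 16723 ± 281 (SD, n = 3) in CAOV3 controls and 33268 ± 1975 in TOV21G controls, a 1.99-fold difference (log2 0.99, 95% interval 0.87 to 1.11, adjusted p = 8.37e-10, limma). Its co-chaperones went both ways. DNAJB9 was 2.37-fold higher in TOV21G (276 and 656, adjusted p = 3.06e-10) and DNAJB11 1.73-fold higher (1133 and 1966, adjusted p = 5.81e-09). DNAJC3 was 2.30-fold lower, at 7686 ± 268 in CAOV3 and 3346 ± 116 in TOV21G (log2 -1.20, adjusted p = 2.96e-11). SDF2L1, CRELD2 and HSP90B1 were 1.59-fold, 1.38-fold and 1.32-fold higher in TOV21G. MANF was called in neither direction (-0.01, 95% interval -0.12 to 0.11). HYOU1 was 1.08-fold lower with an adjusted p of 0.0457, and it passed in 11 of 20 alternative fits. Among the isomerases P4HB was 1.73-fold higher (15488 and 26810) and PDIA6 1.29-fold higher, and among the lectin chaperones CANX was 1.20-fold lower. CALR, PDIA3 and PDIA4 were not called, with intervals between -0.18 and 0.17.

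Among the degradation genes, EDEM1 (chromosome 3, 5187646 to 5219957) had values of 1145, 1108 and 1146 in CAOV3 controls and 5483, 5744 and 5917 in TOV21G controls. The groups were far apart, at 5.04-fold, the largest fold of the 32 members (log2 2.33, 95% interval 2.24 to 2.42, adjusted p = 8.58e-15, limma). Its relative EDEM2 was 1.51-fold higher. SEL1L was 1.76-fold higher in TOV21G (2670 and 4691, adjusted p = 4.47e-10), while its partner SYVN1 was 1.44-fold lower (1720 and 1194, adjusted p = 5.15e-08). The derlins split, with DERL2 1.57-fold higher, DERL1 1.09-fold higher (adjusted p = 0.0368, past the threshold in 15 of 20 alternatives) and DERL3 3.86-fold lower (37.5 ± 3.74 and 8.98 ± 0.79, adjusted p = 4.38e-05). On the scale of value plus 1 the fold of DERL3 is understated, and as a gene tested because of its level in CAOV3 it could hardly have been higher in TOV21G. HERPUD1, with 2567 ± 82.1 and 2593 ± 241, and OS9 were not called.

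SPCS3 was 1.72-fold lower in TOV21G (10589 and 6148, adjusted p = 2.53e-10), whereas SEC24D was 1.64-fold and SEC61A1 1.26-fold higher. SEC61B was not called (0.10, 95% interval -0.04 to 0.23). The 3 sensors did not differ in the same direction. ATF6 was 2.34-fold higher in TOV21G, at 1203 ± 89.0 and 2806 ± 22.9 (adjusted p = 3.29e-11), and EIF2AK3 was 1.71-fold lower, at 804 ± 47.8 and 470 ± 16.4 (adjusted p = 3.73e-08). ERN1 was 1.16-fold lower, at 570 ± 29.5 and 492 ± 22.3 (adjusted p = 0.00388). XBP1 was 1.35-fold higher, at 2516 ± 57.9 and 3404 ± 202 (adjusted p = 3.6e-06). The members with a promoter motif had a median difference of 0.39 (n = 10) and those without 0.21 (n = 18). With ascites the same medians were 0.04 and -0.001 in CAOV3 and -0.07 and -0.06 in TOV21G.

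To order the members by level, values were divided by the exon length of each gene in GENCODE 29, merged over all its annotated transcripts. That length can exceed the length of the mRNA in these cells, by more in some genes than in others, so the ranks are approximate. Per kilobase, CALR was the most abundant in both lines, at 15963 ± 247 in CAOV3 controls and 16246 ± 859 in TOV21G controls. CANX, HSP90B1, PDIA4 and HSPA5 followed in CAOV3, from 6312 down to 4279. In TOV21G HSPA5 was next, at 8513 ± 505, then HSP90B1, CANX and P4HB, from 6625 down to 5056. CANX and P4HB there lay within their spread of each other (5278 ± 140 and 5056 ± 354), and so did PDIA6 and PDIA4 (4272 ± 214 and 4238 ± 227). The same held in CAOV3 for PDIA6 and PDIA3 (3307 ± 111 and 3285 ± 67.0). Of the sensors, ERN1 was 31st of 32 in both lines, at 52.5 and 45.3 per kilobase, above DERL3. EIF2AK3 was 28th in CAOV3, at 148, and 30th in TOV21G, at 86.5. ATF6 was 27th in CAOV3, at 153, and 22nd in TOV21G, at 356. EDEM1 was 25th in CAOV3, at 168, and 17th in TOV21G, at 846.

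Other genes of the pathway were read from 8 lists with 116 genes, of which 115 were tested (ERN2, a relative of ERN1, was not analysed here). With ascites, limma called 1 of 115 in CAOV3 (all genes: 1.73%), 0 in TOV21G (0.409%) and 0 in the difference (0.545%). At an unadjusted p under 0.05 there were 18 (15.7%, all genes 12.9%), 6 (5.22%, all genes 9.17%) and 21 (18.3%, all genes 11.9%). The called gene was MIA3, an organiser of the exit sites through which large cargo leaves the endoplasmic reticulum, in a list of 14 coat and export genes. MIA3 was 2112 ± 32.2 in CAOV3 controls and 1737 ± 61.2 with ascites, a fitted change of -0.28 (SE 0.04, adjusted p = 0.0029, limma). It stayed called in all 23 alternative fits, with an adjusted p of at most 0.0396. In TOV21G MIA3 was 1651 ± 65.4 and 1565 ± 32.2 (-0.08, adjusted p = 0.6, and -0.12 without the 2 libraries at the extremes), and the difference between the lines was 0.21 (adjusted p = 0.203).

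In the other 7 lists none was called with ascites in either line. For each, the gene with the lowest unadjusted p in either line is given here. PDIA5, an isomerase among 22 other folding genes, stood at 0.17 in CAOV3 (adjusted p = 0.162). NPLOC4, which works with the extraction ATPase of degradation, stood at 0.08 in CAOV3 among 18 genes (adjusted p = 0.243). TRAM1, a membrane partner of the translocation channel, stood at 0.14 in CAOV3 among 20 genes (adjusted p = 0.212). EIF2S1, the translation factor that PERK phosphorylates, stood at 0.15 in CAOV3 among 14 genes of the PERK arm (adjusted p = 0.126). MAP3K5, a kinase downstream of IRE1, stood at -0.15 in CAOV3 among 7 genes (adjusted p = 0.083). CREB3L1, a relative of ATF6, was 254 ± 42.8 in TOV21G controls and 191 ± 15.5 with ascites (-0.40, unadjusted p = 0.0018, adjusted p = 0.165, limma), and -0.22 without the 2 libraries at the extremes. In the same list CREB3L2 in CAOV3 had a smaller adjusted p, 0.0872, at -0.17. HSPA1B, a cytosolic heat shock gene with a near-identical copy that makes its counts uncertain, stood at -0.15 in TOV21G among 13 genes (adjusted p = 0.468), and at -0.07 without those libraries. The fitted changes of the 20 translocation genes were above 0 for 19 in CAOV3 and below 0 for 20 in TOV21G (6 without the 2 libraries at the extremes). Those of the 13 heat shock genes were above 0 for 13 in CAOV3 and below 0 for 11 in TOV21G (4 without them). All genes tested were above 0 for 47.7% in CAOV3 and below 0 for 56.1% in TOV21G, or 47.7% without them. None of these list genes passed the test.

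At baseline 51 of the 115 were higher in TOV21G (44.3%, all genes 40.8%) and 47 lower (40.9%, all genes 41.4%). The listed heat shock genes were lower in TOV21G in 12 of 13, with a median of -0.33, where BAG3 was the 1 higher gene. Most of that list is cytosolic, but it also holds the mitochondrial chaperone genes HSPD1 and HSPE1. In the list of ATF6 relatives and Golgi proteases, which also held SCAP, a gene of neither kind, 6 of 7 were higher. CREB3L1 was lower (755 ± 26.9 in CAOV3 and 254 ± 42.8 in TOV21G). The PERK arm list was mixed, with 6 higher and 7 lower among 14.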

How the data were processed

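RNA of 12 libraries was sequenced, and the authors deposited 1 normalised signal per gene and library for 19251 Ensembl identifiers. Per the submitters' processing notes, Trim Galore, cutadapt, STAR, HTSeq and DESeq were used. Their versions and roles, the genome build, the annotation and the strandedness are not given in the sources used here. In each library 100% of the deposited signal values were whole multiples of 1 step (tolerance 0.001 read, largest deviation 5.33e-05), so they are read counts divided by a size factor, a step inferred from the values. Symbols came from a table of gene names (19087) and GENCODE 29 (136), with 28 identifiers unnamed. Positions are those of GENCODE 29 on GRCh38 and may not be those used for counting. Of the members, 23 overlap another annotated gene, and PDIA3 and HSP90B1 have pseudogene copies, so their counts are less certain.

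The main test was limma 3.58.1 (R 4.3.3, eBayes with trend) on log2(signal + 1) for the 17616 genes with a value of at least 10 in 3 libraries, all 12 libraries in 1 fit with 1 mean per group, two-sided, Benjamini-Hochberg adjusted within each comparison and called under 0.05. The pseudocount understates the fold of low genes. On simulated data for the CAOV3 comparison (17296 genes) the test recovered 97% of 100 genes changed by a log2 of 0.5 and 100% of 100 changed by 1, with 32 false among 229 calls. The changed genes were drawn only from the more abundant genes, none as low in CAOV3 as DERL3 or DNAJB9. Libraries were simulated without shared patterns. Changes as small as those fitted for the members with ascites were not simulated, so how often they would be called was not measured. Alternatives were edgeR 4.0.16, DESeq2 1.42.0, TMM scaling, size factors within a line, each line alone, pseudocounts of 0.5 and 5, no filter or one at 50, a replicate block, leaving out each library, and, added after seeing the data, leaving out the TOV21G libraries at the extremes of KCNQ1OT1.

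The members and gene lists were chosen with earlier results of these data known, so lists are described by counts and medians with no test of their own. By the rule for named genes, the members called with ascites plus HSPA5, XBP1, the 3 sensors and DERL3 were described in full, at baseline the 5 called members farthest in each direction plus HSPA5, XBP1 and the sensors, and from each other list the called genes or else that with the lowest p. All 32 members are accounted for.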

Additional observations from a re-analysis of the deposited data

How the results depend on the processing

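With ascites, the alternatives called 0 members in either line, except that leaving out the TOV21G libraries at the extremes of KCNQ1OT1 called 1, HERPUD1, in CAOV3 (-0.22). The difference between lines had 0 to 1 members called when a library was left out, the 1 being SDF2L1 without TOV21G ascites replicate 2 (-0.367). At baseline 23 to 25 members were called. Counts over all genes moved more. In CAOV3 305 genes were called by limma, 511 by edgeR, 507 by DESeq2, 116 with the replicate block and 162 to 345 with a library left out. In TOV21G the count was 72, and it was 114 by edgeR, 151 by DESeq2, 8 with the line fitted alone, 13 with the replicate block and 24 to 137 with a library left out. For the difference it was 96, and 148 by edgeR, 210 by DESeq2, 9 with the block, 57 without the libraries at the extremes of KCNQ1OT1 and 35 to 147 with a library left out. The cause was not tested. The replicate block called 0 members in each ascites comparison. No pairing of the libraries by replicate number was seen. Deviations from the group means in same-numbered libraries correlated at -0.07, 0.06 and 0.01 in CAOV3 and at -0.16, -0.42 and 0.07 in TOV21G over 11886 genes. Not every library correlated best with its own number, and TOV21G control replicate 1 with ascites replicate 2 stood at 0.46. A weak pairing could be hidden by such library differences, so whether the numbers pair is not known. The median of the members in TOV21G ran from -0.118 to -0.022 with a library left out and was 0.008 without both extremes, where the median of the difference was -0.017. At baseline the median was 0.33 with the filter at 50, which removes DERL3.

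Small values changed sign without a call. In TOV21G, ATF6 stood at 0.011 with TMM and edgeR, 0.01 with size factors within the line and 0.017 without both extremes, and EIF2AK3 at 0.021, 0.021, 0.02 and 0.016 under the same settings, while HSPA5 and XBP1 stood at 0.018 and 0.01 without both extremes. With a library left out, ATF6 ran from -0.041 to 0.017 and EIF2AK3 from -0.053 to 0.022. For DERL3 the difference was 0.021 with a pseudocount of 5, 0.211 without both extremes and -0.311 to 0.232 with a library left out, and its change in CAOV3 ran from -0.489 to 0.015.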
